A study of Mus musculus with 4 samples.

Results

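Tuft cells are chemosensory cells scattered through the gut epithelium, and 9 genes that mark them were followed across 4 libraries of mouse colon RNA. The genes were taken by symbol from a table of 44788 gene rows, and all 9 were found: Pou2f3, Gfi1b, Dclk1, Trpm5, Sh2d6, Il25, Il17rb, Alox5ap and Ltc4s. Colon tissue came from C57BL/6 mice, either wild type (WT) or labelled Card9-/-, a knockout of an adaptor that carries signals from fungal-sensing lectins in myeloid cells. In each genotype 1 library came from mice with no treatment (labelled day 0) and 1 from mice given AOM/DSS and labelled 100 days. In that model of colitis-associated colon cancer, the carcinogen azoxymethane (AOM, 10 mg/kg) comes before 3 cycles of dextran sulfate sodium (DSS, an irritant of the colon lining), each with 2% DSS in the drinking water over 7 days. Treatment and time of collection coincide, so they cannot be told apart. The sources used here give neither the age of the mice nor how many mice stand behind a library, nor whether the AOM/DSS tissue was tumour.

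Tuft cells depend on the transcription factor Pou2f3, sense luminal metabolites through a taste-like cascade that ends in the cation channel Trpm5, and are the main epithelial source of the cytokine interleukin 25 (IL-25). IL-25 acts on lymphoid cells through the receptor subunit Il17rb, and these cells answer with interleukin 13, which raises the number of tuft and goblet cells. Tuft cells also make eicosanoids, among them cysteinyl leukotrienes, for which the leukotriene pathway needs Alox5ap and Ltc4s. Both of these genes are also made by myeloid cells, Dclk1 also by neurons, and Gfi1b also by megakaryocytes and erythroid precursors. The libraries are whole colon tissue, so fewer tuft cells and less RNA of these genes per cell cannot be told apart.

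The libraries held 23022885 to 27706567 counts, and levels are given as counts per 1000000 counts (CPM) scaled by the TMM method. Card9 itself had 44 and 116 counts in the WT libraries, untreated and AOM/DSS, and 69 and 245 counts in those labelled Card9-/-, so the targeted gene is not lower where the label says it was removed; which of its exons the reads covered cannot be read from this table. These samples are called the libraries labelled knockout throughout, and any direction between genotypes depends on that label being right. Of the 4 libraries, AOM/DSS labelled knockout was the one least like the others, with a correlation of 0.827 to 0.855 with the other libraries across 16382 genes against 0.942 to 0.954 among the other 3. Results of AOM/DSS over untreated that rest on it are therefore given beside the WT pair, which does not use it. Since each group is 1 library, no difference between libraries could be set against replicates. Ranges in parentheses after a fold are 95% intervals of counting error alone. A gene is said to pass the size rule, or to be at least 2-fold higher or lower in a list, when the higher library has at least 50 counts and the ratio is at least 2-fold on the log2(CPM + 1) scale.

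In the untreated tissue 7 of the 9 tuft cell genes had 36 or more counts in each library, while Il25 had 4 in each and Gfi1b 13 and 14. The octamer that POU factors such as Pou2f3 bind and a core found in Gfi1b sites were looked for in the 250 bases before the start sites of the members, using the RefSeq promoters of GRCm38.p6. The table held 7 such windows for 6 of the members (Dclk1 has 2 start sites), and Pou2f3, Alox5ap and Il25 had none. The windows of Sh2d6, Ltc4s and Il17rb held no match to either sequence and are not shown. For Trpm5, Dclk1 and Gfi1b the 100 bases before the start site are shown. They read 5′ to 3′ on the strand of the gene, with matches to the Gfi1b core in capitals.
Trpm5, chr7:143094643-143094742, minus strand: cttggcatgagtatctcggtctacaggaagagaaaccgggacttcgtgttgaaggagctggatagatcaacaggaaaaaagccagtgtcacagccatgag
Dclk1, upstream start, chr3:55242264-55242363, plus strand: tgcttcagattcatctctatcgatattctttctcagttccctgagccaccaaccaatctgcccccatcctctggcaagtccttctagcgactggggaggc
Dclk1, internal start, chr3:55461628-55461727, plus strand: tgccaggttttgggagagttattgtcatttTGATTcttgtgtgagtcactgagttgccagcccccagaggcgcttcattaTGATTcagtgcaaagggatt
Gfi1b, chr2:28621983-28622082, minus strand: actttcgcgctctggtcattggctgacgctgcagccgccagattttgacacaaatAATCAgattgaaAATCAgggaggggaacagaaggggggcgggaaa

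The octamer ATGCAAAT, searched on both strands, was in 0 of the 7 windows and in 1.60% of all 32851 RefSeq windows of that length. The core AATCA, also searched on both strands, was in 2 of the 7 windows and in 33.7% of all windows. Gfi1b itself had it 45 and 33 bases before its start. The internal start of Dclk1 had it 146, 70 and 20 bases before, where the last 2 matches read on the opposite strand. A match is a description of letters, and the counts per gene do not separate the transcripts of the 2 Dclk1 start sites.

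Of the 9 genes, 8 were lower in both AOM/DSS libraries than in both untreated libraries, and Alox5ap was higher in both. With at least 50 counts in a library, 6 of 7 members were lower in this way, against 18.2% of 16383 genes, and 1 of 7 was higher, against 21.4%. Summed without the leukotriene genes Alox5ap and Ltc4s, the other 7 members stood at 54.5 and 20.3 CPM in the WT pair, untreated and AOM/DSS. In the pair labelled knockout they stood at 61.1 and 9.47 CPM.

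**Figure D1:**
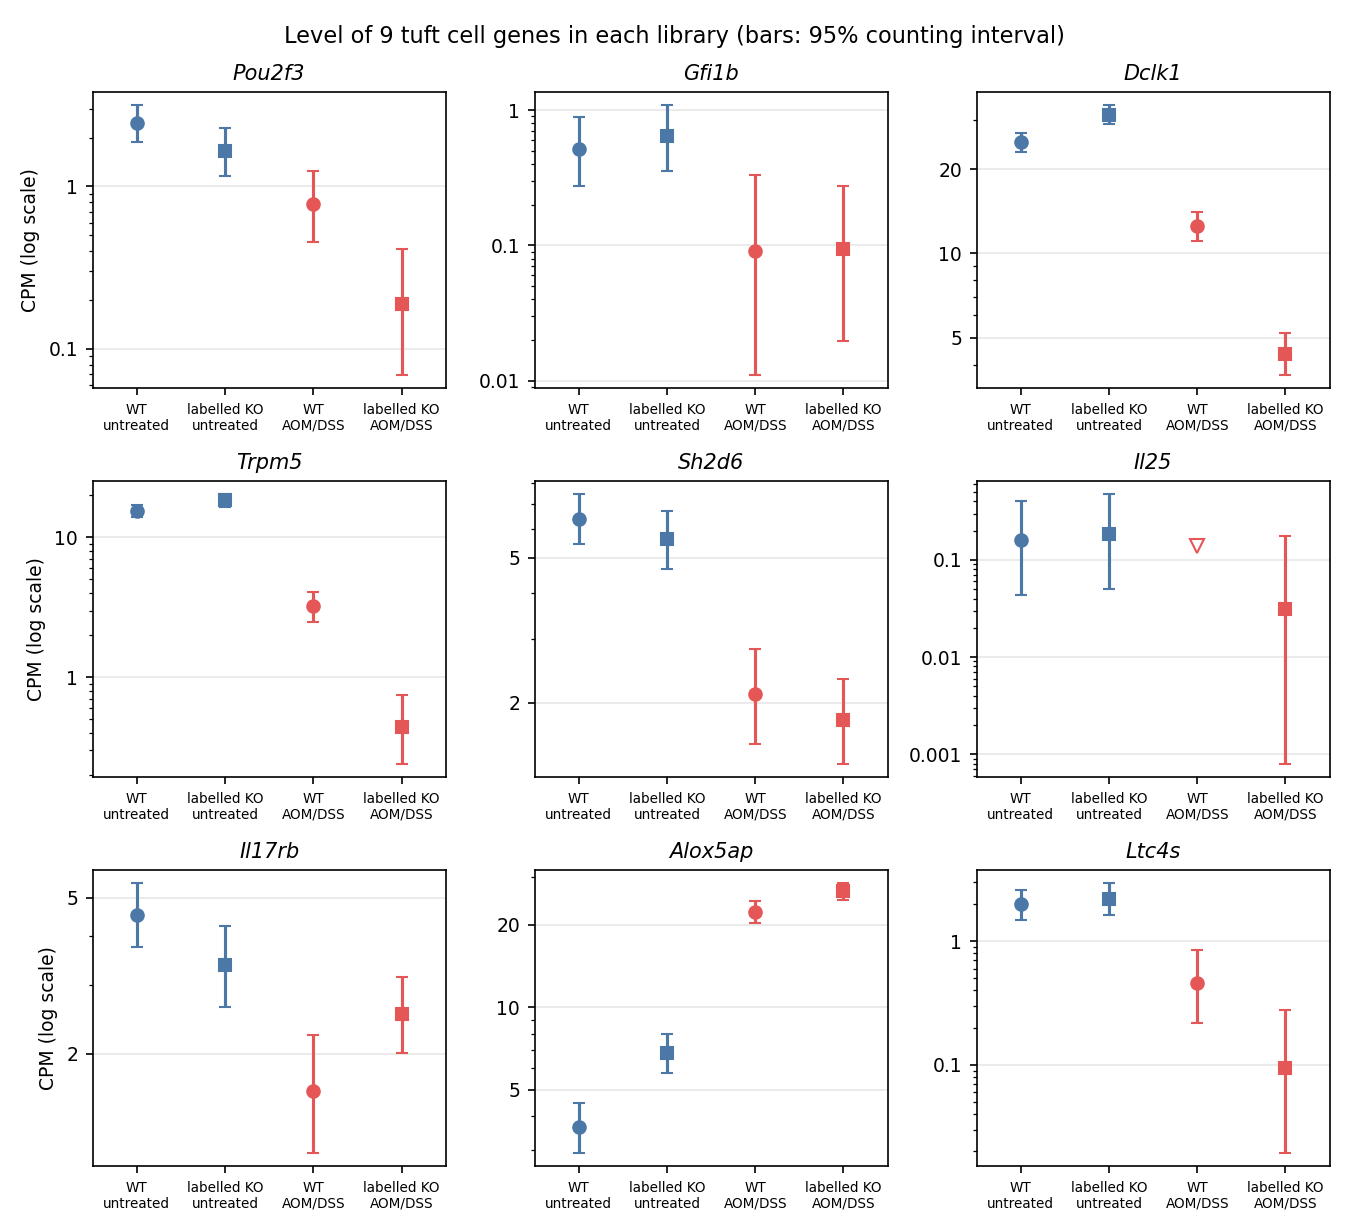
Level of each of the 9 genes as CPM on a log axis (the range differs between panels) in the 4 libraries; points are single libraries, bars their 95% counting interval, and the open triangle marks 0 counts of Il25, drawn at the level of 3 counts. Trpm5 goes from 15.5 and 18.4 CPM in the untreated libraries to 3.21 and 0.442 CPM after AOM/DSS, while Alox5ap goes from 3.65 and 6.81 CPM to 22.3 and 26.5 CPM.

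Pou2f3 (chromosome 9, 43123939 to 43210369, minus strand) encodes the POU-domain factor without which tuft cells do not form. It stood at 2.46 CPM in untreated WT (62 counts), 1.66 CPM in the untreated library labelled knockout (36), 0.779 CPM in WT AOM/DSS (17) and, in AOM/DSS labelled knockout, 0.189 CPM (6). Both treated libraries were thus under both untreated ones. Pou2f3 was 3.16-fold lower in the WT pair (1.82 to 5.76) and 8.75-fold lower in the pair labelled knockout (3.65 to 25.4). The untreated libraries differed 1.48-fold with an interval that includes 1 (0.969 to 2.30), while AOM/DSS labelled knockout was 4.12-fold under WT AOM/DSS (1.55 to 12.7).

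Gfi1b (chromosome 2, 28609450 to 28621982, minus strand), a zinc finger repressor found in tuft cells and in the platelet and red cell lineages, was near the limit of detection. It had 13 and 14 counts in the untreated libraries, WT and labelled knockout, and 2 and 3 counts after AOM/DSS. Its level was 5.62-fold lower in WT AOM/DSS than in untreated WT (1.27 to 51.3) and 6.81-fold lower in the pair labelled knockout (1.90 to 36.9). Of 7 genes listed for megakaryocytes and platelets, Gata1 had 0 to 5 counts and Gp9 0 to 3 in any library. The summed level of the list stayed between 11.001 and 18.2 CPM. By the size rule 1 of 3 was higher in WT (Gp1bb, 89 and 208 counts) and 0 lower, against 4.08% and 3.88% of all genes. In the pair labelled knockout 1 of 3 was higher (Ppbp, 0 and 89 counts) and 0 lower, against 14.1% and 15.9%. The erythroid list summed to 47.5 and 49.0 CPM untreated and to 59.98 (WT) and 9.88 CPM (labelled knockout) after AOM/DSS, so it was lower along with Gfi1b in the second pair and not in the first. Its part in the Gfi1b level was not tested.

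Trpm5 (chromosome 7, 143069153 to 143094642, minus strand), the calcium-gated channel at the end of the taste-like cascade, had the largest fold of the 7 members with at least 50 counts in a library in the pair labelled knockout, though not in WT. It stood at 15.5 CPM in untreated WT (390 counts), 18.4 CPM in the untreated library labelled knockout (399), 3.21 CPM in WT AOM/DSS (70) and, in AOM/DSS labelled knockout, 0.442 CPM (14). Levels after AOM/DSS lay below the untreated ones in either genotype. Trpm5 was 4.82-fold lower in WT (3.73 to 6.31) and 41.6-fold lower in the pair labelled knockout (24.5 to 76.7). Between labels, the untreated library labelled knockout was 1.19-fold higher than WT (1.03 to 1.37), and the AOM/DSS library labelled knockout was 7.26-fold lower (4.05 to 14.0). Trpm5 shares 220 of its 6398 exonic bases (3.44%) with Tssc4 on the other strand, which had 1099 counts in the AOM/DSS library labelled knockout, where Trpm5 had 14.

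Dclk1 (chromosome 3, 55242364 to 55539068, plus strand), a microtubule-binding kinase and the usual tuft cell marker of mouse gut, had the most counts of the 9 when untreated. It stood at 24.95 CPM in untreated WT (629 counts), 31.3 CPM in the untreated library labelled knockout (680), 12.5 CPM in WT AOM/DSS (272) and, in AOM/DSS labelled knockout, 4.39 CPM (139). The ranges of the treated and untreated libraries did not overlap. Dclk1 was 2.00-fold lower in WT (1.73 to 2.32) and 7.13-fold lower in the pair labelled knockout (5.94 to 8.62). Dclk1 was 1.25-fold higher in the library labelled knockout when untreated (1.12 to 1.40) and 2.84-fold lower after AOM/DSS (2.31 to 3.51). The 10 genes listed for enteric neurons and glia summed to 99.9 CPM in untreated WT and 102 CPM in WT AOM/DSS, close to each other while Dclk1 was lower. In the pair labelled knockout they summed to 75.9 CPM untreated and 40.8 CPM after AOM/DSS. There 8 of the 10 passed the size rule as lower and 0 as higher, against 15.9% and 14.1% of all genes. The part of neurons and glia in the Dclk1 level of that pair was not tested.

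Sh2d6 (chromosome 6, 72513641 to 72521707, minus strand), an SH2-domain adaptor of tuft cells, stood at 6.39 and 5.62 CPM in the untreated libraries, WT and labelled knockout (161 and 122 counts). After AOM/DSS it stood at 2.11 and 1.80 CPM (46 and 57 counts). It was 3.03-fold lower in WT (2.17 to 4.30) and 3.12-fold lower in the pair labelled knockout (2.26 to 4.35), so both pairs gave a similar ratio. In AOM/DSS the library labelled knockout was 1.17-fold lower than WT (0.777 to 1.76). Across the scalings tried, this log2 ratio without a pseudocount went from -0.29 to 0.04, so the direction flips.

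Il25 (chromosome 14, 54932695 to 54935837, plus strand), the cytokine of the tuft cell, had 4 counts in each untreated library, 0 in WT AOM/DSS and 1 in AOM/DSS labelled knockout. The floor of 3 counts is worth 0.138 CPM in WT AOM/DSS, and the untreated libraries stood at 0.159 and 0.184 CPM. Per kilobase of exon, the counting interval of the 0 counts reached 0.159 CPM per kb. It overlapped those of untreated WT (0.0406 to 0.382) and of the untreated library labelled knockout (0.0471 to 0.443). A difference was not detectable at this depth.

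Il17rb (chromosome 14, 29996135 to 30008896, minus strand), the IL-25 receptor subunit, is made by tuft cells and by lymphoid cells. It stood at 4.52 CPM in untreated WT (114 counts), 3.36 CPM in the untreated library labelled knockout (73), 1.60 CPM in WT AOM/DSS (35) and, in AOM/DSS labelled knockout, 2.53 CPM (80). Its treated and untreated levels did not overlap, but the gap was narrow in the pair labelled knockout. It was 2.82-fold lower after AOM/DSS in WT (1.91 to 4.24) and 1.33-fold lower in the pair labelled knockout, with an interval that includes 1 (0.955 to 1.85). After AOM/DSS it was 1.57-fold higher in the library labelled knockout than in WT (1.05 to 2.41), whereas Trpm5, Dclk1 and Pou2f3 were lower there. Il17rb shares 141 exonic bases (3.80%) with Actr8 on the other strand.

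**Figure D2:**
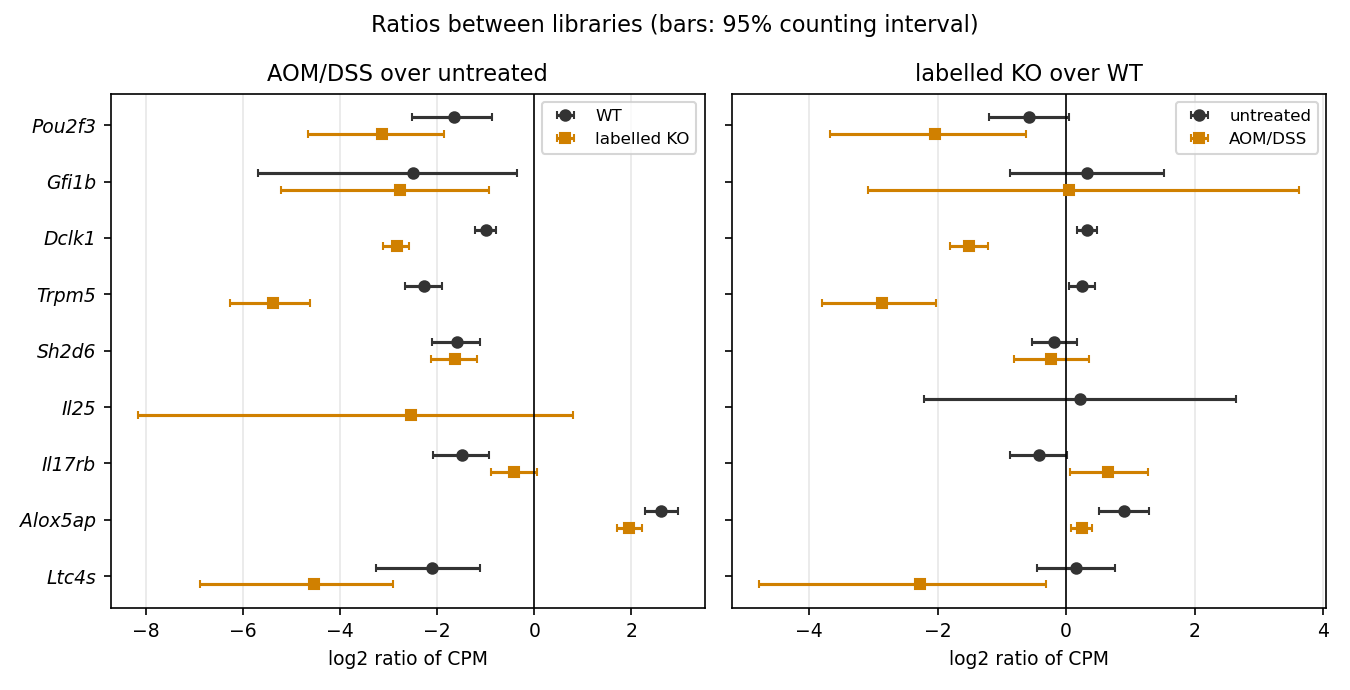
Log2 ratio of CPM for each gene, AOM/DSS over untreated on the left (circles WT, squares labelled knockout) and labelled knockout over WT on the right (circles untreated, squares AOM/DSS), with 95% counting intervals; ratios against 0 counts are not drawn. On the left Alox5ap is the only gene to the right of 0. On the right the points of Trpm5, Dclk1, Ltc4s and Il17rb lie on opposite sides of 0 in the untreated and AOM/DSS pairs. For Ltc4s and Il17rb the untreated interval includes 0.

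The leukotriene genes split. Alox5ap (chromosome 5, 149264767 to 149288153, plus strand) encodes the membrane protein that presents arachidonic acid to 5-lipoxygenase (Alox5), and Ltc4s (chromosome 11, 50236461 to 50238616, minus strand) the enzyme that conjugates leukotriene A4 to glutathione. Alox5ap stood at 3.65 CPM in untreated WT (92 counts), 6.81 CPM in the untreated library labelled knockout (148), 22.3 CPM in WT AOM/DSS (487) and, in AOM/DSS labelled knockout, 26.5 CPM (839). Both treated libraries were above both untreated ones, by 6.12-fold in WT (4.89 to 7.73) and 3.89-fold in the pair labelled knockout (3.26 to 4.66).

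Ltc4s stood at 1.98 CPM in untreated WT (50 counts), 2.21 CPM in the untreated library labelled knockout (48), 0.459 CPM in WT AOM/DSS (10) and, in AOM/DSS labelled knockout, 0.0947 CPM (3). It went the way of Trpm5, with both treated libraries lowest. The difference was 4.33-fold in WT (2.17 to 9.57) and 23.3-fold in the pair labelled knockout (7.52 to 117). An antisense gene shares 268 of the 1014 exonic bases of Ltc4s (26.4%), another shares 189 bases of Alox5ap (13.3%), and neither was analysed here.

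Among their partners, Alox5 was lower after AOM/DSS, at 7.66 and 8.75 CPM in the untreated libraries (WT and labelled knockout) and 2.89 and 4.92 CPM after it. Its direction was thus opposite to that of Alox5ap, its activating protein. Pla2g4a, which releases arachidonic acid, stood between 37.3 and 52.0 CPM in the 4 libraries. Mgst2, a second glutathione-conjugating enzyme, stood at 58.9 and 75.8 CPM in the WT pair and at 52.3 and 21.1 CPM in the pair labelled knockout. Among the prostaglandin enzymes, inducible Ptgs2 was 6.97-fold higher after AOM/DSS in WT (5.77 to 8.48), at 5.04 and 35.1 CPM. Hpgds, the prostaglandin D2 synthase of tuft and mast cells, was 2.71-fold higher in AOM/DSS labelled knockout than in WT AOM/DSS (2.11 to 3.51). In WT it was 2.09-fold lower after AOM/DSS (1.60 to 2.74), at 7.66 and 3.67 CPM. In the pair labelled knockout it stood at 8.56 and 9.94 CPM, with an interval that includes 1 (0.966 to 1.40). Of this list of 11 genes, 8 met the count minimum in WT. There 1 was at least 2-fold higher and 1 lower, against 4.08% and 3.88% of all genes. In the pair labelled knockout 1 of 9 was higher and 1 lower, near the shares of 14.1% and 15.9% over all genes tested there.

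**Figure D3:**
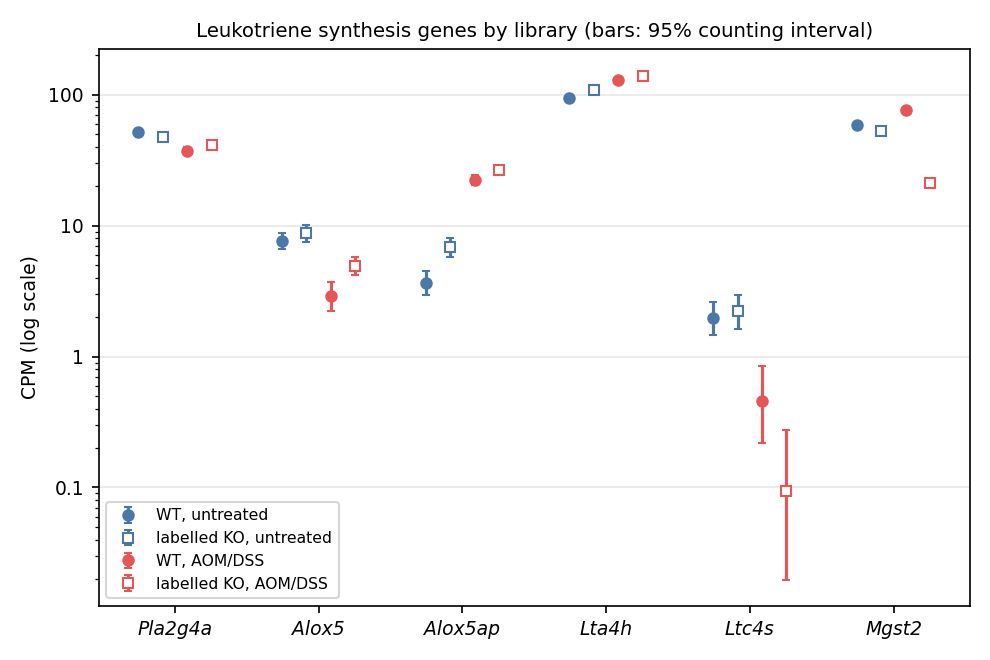
CPM on a log axis for 6 genes of leukotriene synthesis, with the 4 libraries side by side for each gene (blue untreated, red AOM/DSS, filled WT, open labelled knockout) and 95% counting intervals. Alox5ap is higher in the red points, up to 26.5 CPM, while Ltc4s is lowest at 0.0947 CPM and Alox5 at 2.89 CPM.

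Myeloid cells also make Alox5ap. The 10 listed myeloid genes, of which Lyz2 had the highest level, summed to 396 and 470 CPM in the WT pair and to 485 and 1297 CPM in the pair labelled knockout, with 0 of 10 genes at 0 counts. After AOM/DSS 2 of 10 were at least 2-fold higher and 2 lower in WT, against 4.08% and 3.88% of all genes. In the pair labelled knockout 7 were higher and 0 lower, against 14.1% and 15.9%. Set against that sum, Alox5ap came to 9.22 and 14.1 per 1000 myeloid CPM in the untreated libraries and to 47.5 and 20.4 after AOM/DSS. The 6 neutrophil genes summed to 16.9 and 8.06 CPM untreated and to 377 and 237 CPM after AOM/DSS. In both treated libraries 6 of 6 were higher than in both untreated ones, against 21.4% of all genes. The part of these cells in the Alox5ap level was not tested.

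Mast cells and eosinophils also make Ltc4s. The 10 mast cell genes summed to 157 and 98.3 CPM in the untreated libraries (WT and labelled knockout) and to 101 and 201 CPM after AOM/DSS. In the first 3 libraries Kit made up most of these sums, and pacemaker cells of the gut wall also make it. Cpa3, a mast cell protease, had 332 counts in AOM/DSS labelled knockout and 6 to 10 elsewhere. By the size rule, 1 of 3 mast cell genes was higher in WT (Hdc, 0.397 and 37.4 CPM) and 1 lower (Kit). Over all genes tested the shares were 4.08% and 3.88%. In the pair labelled knockout 8 of 10 were higher and 1 lower (Kit), against 14.1% and 15.9%. Siglecf, an eosinophil receptor that tuft cells of mice also carry (counted under its older symbol Siglec5), stood at 3.13 and 3.31 CPM untreated and at 1.01 and 0.663 CPM after AOM/DSS. The eosinophil granule genes Epx (1 to 5 counts) and Prg2 (10 to 26 counts) were low in every library. Ccr3, the eotaxin receptor, had 22 and 13 counts untreated and 2 and 5 after AOM/DSS. Il5ra, the interleukin 5 receptor subunit, which B cells also make, went the other way, with 1 and 9 counts untreated and 65 and 129 after AOM/DSS, and passed the size rule as higher in both pairs. The part of mast cells and eosinophils in the Ltc4s level was not tested.

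Counted by the size rule, 7 members met the count minimum in the WT pair. Trpm5, Sh2d6, Ltc4s and Il17rb were lower by this rule, against 3.88% of 15356 genes, and Alox5ap was higher, against 4.08%. Pou2f3 (-0.96) and Dclk1 (-0.95) lay just short of it. The median over all 9 members was -0.96, next to 0.02 over all genes tested, and Il25 and Gfi1b entered it although they are too low to pass.

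In the pair labelled knockout, 5 members met the count minimum. Trpm5, Dclk1 and Sh2d6 were at least 2-fold lower, against a background of 15.9% of 15900 genes, and Alox5ap was higher, against 14.1%. The median of the 9 members was -1.16, and that of all genes tested 0.03. Between the untreated libraries 7 members met the minimum and 0 passed in either direction, where 4.46% of 15352 genes were higher and 3.37% lower in the library labelled knockout. The member median there was 0.11. Of the 9 members, 3 had intervals above 1 (Alox5ap 1.87-fold, 1.43 to 2.45, with Dclk1 and Trpm5 as above) and 0 had intervals below 1. After AOM/DSS, Trpm5 and Dclk1 were at least 2-fold lower in the library labelled knockout, against 12.4% of 15779 genes, and 0 members were higher, against 11.9%. The member median was -0.15.

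An additive model of treatment and genotype label over all 4 libraries (edgeR's quasi-likelihood test) called 0 of the 8 members it could fit at an adjusted p under 0.05, as it called 0% of 18973 genes for either factor. Without adjustment, 7 of the 8 had a treatment p under 0.05, against 6.05% of all genes. For the genotype label 0 of 8 did, against 3.93%. The fitted treatment effect of Trpm5 was -3.74 on the log2 scale (adjusted p = 0.670 by edgeR's quasi-likelihood test), and that of Alox5ap 2.27 (adjusted p = 0.490 by the same test). DESeq2, fitted in the same design, called Trpm5 (adjusted p = 0.000239) and Alox5ap (adjusted p = 0.00814) for treatment, against 1.79% of 18618 genes. Both fits leave 1 residual degree of freedom, and it is the interaction itself; their p-values therefore assume that treatment acts alike under both labels apart from the spread of mice.

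The pan-epithelial genes, most of whose sum is the keratin Krt8, were not lower along with the tuft cell genes in WT. The 6 genes of that list summed to 7278 and 8781 CPM in the WT pair, and to 8722 and 6424 CPM in the pair labelled knockout. Set against this sum, the 7 members other than Alox5ap and Ltc4s came to 7.48 and 7.01 per 1000 epithelial CPM in the untreated libraries and to 2.31 and 1.47 after AOM/DSS. On this scale, without a pseudocount, AOM/DSS over untreated gave a log2 ratio for Trpm5 of -2.54 in WT and -4.94 labelled knockout. As plain CPM without a pseudocount, the Trpm5 ratios were -2.27 and -5.38. For Il17rb the ratios were -1.77 and 0.03 on this scale, and -1.49 and -0.41 as plain CPM. Goblet cell genes, as another secretory type, summed to 16156 and 13740 CPM in the WT pair, and to 14932 and 1648 CPM in the pair labelled knockout. The lower sum in WT came from Muc2, the main mucin, at 13360 and 8674 CPM. By the size rule 2 of 6 goblet cell genes (Zg16, 3.62-fold, and Tff3, 2.47-fold) were higher and 0 lower in WT, and 0 were higher and 5 lower in the pair labelled knockout. Enteroendocrine genes, those of the gut's hormone cells, passed the size rule as lower for 3 of 7 in WT and 6 of 7 in the pair labelled knockout, with sums of 613 and 268 CPM in WT and 604 and 53.4 CPM in the pair labelled knockout. Over all genes tested the share lower was 3.88% in WT and 15.9% in the pair labelled knockout, and the share higher 4.08% and 14.1%. These lists describe the tissue around the tuft cell genes, and their part in the member levels was not tested.

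Per kilobase of exon, the order of the members in untreated WT began with Sh2d6 at 3.78 CPM per kb, followed by Alox5ap at 2.57, Trpm5 at 2.42, Ltc4s at 1.96 and Dclk1 at 1.63. The counting intervals of Sh2d6 and Alox5ap did not overlap, while those from Alox5ap to Dclk1 overlapped from each to the next. For Dclk1 the 15296 exonic bases are the union over a gene with 11 coding transcripts, so the value understates a short transcript. Il17rb at 1.22 and Pou2f3 at 0.797 CPM per kb came next, with overlapping intervals, and Gfi1b (0.282) and Il25 (0.149), which overlap too, were lowest. In the untreated library labelled knockout Alox5ap was already first, at 4.80 CPM per kb (4.06 to 5.64), with Sh2d6 next at 3.32 (2.76 to 3.97). After AOM/DSS Alox5ap was first in both libraries, at 15.7 CPM per kb in WT and 18.7 in the library labelled knockout, with Sh2d6 next at 1.25 and 1.06. Of the summed CPM of the 9 genes, Alox5ap was 6.07% and 9.71% in the untreated libraries and 51.9% and 73.5% after AOM/DSS.

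Other genes of the tuft cell programme, from lists set beside the members, only partly shared this pattern. In the chemosensory list of 11 genes, 4 of the 5 with at least 50 counts in a library were lower, by any amount, in both treated libraries. None were higher, and the shares of all genes were 18.2% lower and 21.4% higher. By the size rule, 1 of 5 was lower and 0 higher in each pair. Over all genes tested the share lower was 3.88% in WT and 15.9% in the pair labelled knockout. Rgs13, a regulator of G-protein signals, had 73, 88, 17 and 0 counts in the order untreated WT and labelled knockout, then AOM/DSS WT and labelled knockout. It was 3.72-fold lower after AOM/DSS in WT (2.17 to 6.72) and at least 42.8-fold lower in the pair labelled knockout with the library at 0 set to 3 counts, where its counting interval began at 34.1-fold. The taste G protein gene Gnat3 had 31, 31, 6 and 0 counts in the same order. Itpr3, the calcium release channel of the cascade, which most epithelial cells also make, stood between 325 and 370 CPM throughout.

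In the structural and signalling list of 13 genes, 1 of the 11 that met the count minimum was at least 2-fold lower and 0 higher after AOM/DSS in WT, against 3.88% and 4.08% of all genes. In the pair labelled knockout 2 of 10 were lower and 3 higher, against 15.9% and 14.1%. Sh2d7, an adaptor related to Sh2d6, went from 6.70 to 2.43 CPM in WT and from 10.2 to 0.0947 CPM in the pair labelled knockout, 107-fold lower (36.3 to 525) with 3 counts left. Chat, which makes acetylcholine in tuft cells and neurons, had 30, 30, 24 and 4 counts. Avil, an actin-bundling protein of the tuft cell's microvilli, went the other way: it stood at 9.16 and 6.01 CPM in the WT pair and at 11.2 and 106 CPM in the pair labelled knockout, 9.44-fold higher there (8.29 to 10.8). The keratin gene Krt23 stood at 4.44 and 4.86 CPM in WT and at 8.88 and 77.4 CPM in the pair labelled knockout. Espn, another actin-bundling protein, was 5.53-fold lower in that pair (4.91 to 6.25), while in WT it stood at 50.8 and 56.4 CPM.

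Among the 7 listed transcription factors, Hmx2 and Hmx3 were too low to pass, and Hmx3 had 24, 20, 8 and 1 counts. Spib stood at 6.11 and 20.7 CPM in the untreated libraries, WT and labelled knockout, and at 15.04 and 1.55 CPM after AOM/DSS. B cells also make Spib, and the 6 B cell genes summed to 16.1 and 97.8 CPM untreated and to 121 and 24.1 CPM after AOM/DSS in the same order. Sox4, Sox9 and Ascl2, which crypt progenitors and tumours also make, were highest in AOM/DSS labelled knockout, at 117, 85.9 and 19.3 CPM, and Ascl2 was lowest in WT AOM/DSS at 1.15 CPM.

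**Figure D4:**
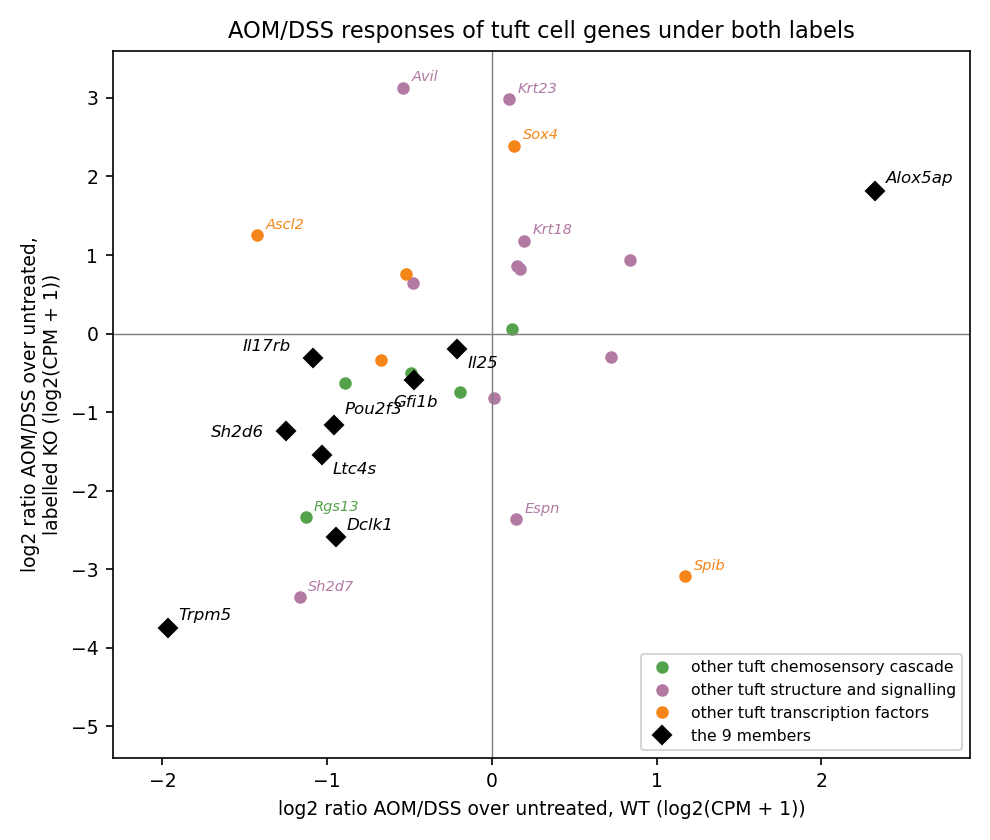
AOM/DSS over untreated as a log2 ratio, with WT along the horizontal axis and the pair labelled knockout along the vertical, on the log2(CPM + 1) scale, for the 9 members (black diamonds) and for other tuft cell genes with at least 50 counts in a library of either pair (circles, by list). Trpm5 lies lowest at -1.97 and -3.75 near Sh2d7, Rgs13 and Dclk1, Alox5ap lies at 2.33 and 1.81, and Avil, Krt23 and Sox4 are high on the vertical axis alone.

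Downstream of IL-25, the type 2 cytokines were barely counted: Il13 had 0 to 1 counts, Il4 1 or 2, Il5 0 to 2 and Il9 0 in every library. Of the upstream alarm signals, Tslp had 15 and 10 counts in the untreated libraries and 3 and 1 after AOM/DSS. Il33, an epithelial and stromal alarmin, was higher after AOM/DSS and stood at 7.86 and 4.005 CPM in the untreated libraries and at 20.8 and 22.5 CPM after AOM/DSS. Its receptor gene Il1rl1 was 5.03-fold higher in WT (3.96 to 6.45) and 6.496-fold higher in the pair labelled knockout (5.24 to 8.13), and mast cells and regulatory T cells make it too. Il4ra, which receives interleukin 13, stood at 88.2 and 61.0 CPM untreated and at 161 and 194 CPM after AOM/DSS. Areg, an epidermal growth factor ligand of type 2 lymphoid cells and epithelium, was 2.94-fold (2.60 to 3.33) and 3.35-fold (2.91 to 3.87) higher. Of the 14 genes of that list, 7 met the count minimum in WT, and 3 of them were at least 2-fold higher and 1 lower, against 4.08% and 3.88% of all genes. In the pair labelled knockout 4 of 8 were higher and 0 lower, against 14.1% and 15.9%.

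Among 8 genes of IL-25 receptor signalling and related receptors, 0 passed the size rule in WT in either direction. Over all genes tested there, 4.08% were higher and 3.88% lower. The shared subunit Il17ra stood at 24.95 and 41.5 CPM in the WT pair and at 33.7 and 39.9 CPM in the pair labelled knockout. In the latter pair Il17re, the receptor of interleukin 17C, was 4.43-fold lower (3.75 to 5.26) and Il17rc 2.05-fold lower (1.94 to 2.18). In WT, Il17re stood at 16.3 and 16.4 CPM and Il17rc at 106 and 117 CPM. Il17c, the ligand of Il17re, had 0 counts untreated and 51 after AOM/DSS in the pair labelled knockout. That was at least 11.7-fold higher against a floor of 3 counts, with a counting interval that began at 9.14-fold. In the WT pair Il17c had 1 and 8 counts.

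The genes whose levels followed a member most closely over the 4 libraries were ranked by Euclidean distance of log2(CPM + 1) values centred on their mean, among 13968 genes with at least 50 counts in a library. With 4 libraries this is a description only. For Trpm5 the nearest was Tppp3 at a distance of 0.178, with 108 and 110 CPM untreated and 27.3 and 8.05 CPM after AOM/DSS, followed by Trpm6, Diras2, Nov and Igkv8-30 at 0.481 to 0.587. For Dclk1 they were Resp18, Wscd2, Pnmal2, Rcn3 and Boc (0.146 to 0.213). For Pou2f3 they were Nudt11, Unc5a, Tgfb2, Col6a3 and Cntn1 (0.0877 to 0.118). For Il17rb they were Papln, Ogdhl, Utp20, Muc4 and Sall1 (0.0475 to 0.151). Among the members, the nearest to Trpm5 was Dclk1 at rank 36, and the nearest to Pou2f3 was Sh2d6 at rank 196. The nearest member to Dclk1 was Ltc4s at rank 283, and to Il17rb it was Sh2d6 at rank 1470. Others ranked further off, such as Pou2f3 at 738 for Trpm5, and Dclk1 at 3531 and Trpm5 at 11735 for Pou2f3. For Il17rb, Dclk1 ranked 11966 and Trpm5 13335.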

How the data were processed

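Colon RNA was isolated with Trizol and sequenced from Ion Proton RNA-seq kit libraries, per the labels' protocols. The authors deposited raw read counts per gene symbol, without normalization, on GRCm38 (mm10) per the submitters' processing notes. The aligner, counter and annotation, and whether strand was used, were not given in the sources used here, so reads of overlapping genes cannot be told apart. In 27 rows a symbol had turned into a date; these rows stayed in the totals. There were 0 columns of other samples.

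CPM were computed from TMM-adjusted totals (edgeR 4.0.16 in R 4.3.3), with factors of 0.992 (WT) and 0.931 (labelled knockout) untreated and 0.947 and 1.14 after AOM/DSS; 1 count is worth 0.0316 to 0.0460 CPM. Folds are ratios of CPM with exact conditional binomial 95% intervals (SciPy 1.17.1), and levels have exact Poisson intervals. Both hold counting error alone, because each group is 1 library. Reads may also be copies of 1 molecule, which these intervals do not allow for. Log2 ratios use a pseudocount of 1 CPM, which understates differences of low genes. A fold against 0 counts uses a floor of 3 counts in that library. The additive fit used filterByExpr, a robust fit and Benjamini-Hochberg adjustment over all genes; DESeq2 1.42.0 was an alternative. The additive edgeR fit was tested on simulated data, on which DESeq2 was not run. Gene positions and exonic lengths came from GENCODE M21 (GRCm38), and 6 of the 9 members matched a RefSeq promoter.

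Samples were grouped by title. The 9 members and the 18 gene lists were chosen with earlier results of these data known. The named genes were every member, up to 4 genes of each list with the largest ratio past the size rule, defining markers, and the 5 nearest profiles of Dclk1, Pou2f3, Trpm5 and Il17rb without predicted genes; of the cell type lists only genes a result turned on are printed. Gnat3, Chat, Hmx2, Hmx3, Itpr3, Il17ra, Pla2g4a, Tff3 and Tslp were added after their values were seen. Alternatives were other scalings, pseudocounts, count minimums, thinning and leaving out genes above 1% of a library.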

Additional observations from a re-analysis of the deposited data

Results flagged for a closer look

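For 2 members the difference between the labels pointed opposite ways in the untreated and the AOM/DSS pair, each with a counting interval that leaves out 1. For Trpm5 the log2 ratio of the library labelled knockout over WT was 0.23 untreated and -1.55 after AOM/DSS, a difference of -1.78 between the pairs. For Dclk1 it was 0.32 and -1.32, a difference of -1.64. Each group is 1 library, so the difference itself was not tested, and both rest on the AOM/DSS library labelled knockout. The untreated differences were small, 1.19-fold for Trpm5 and 1.25-fold for Dclk1. Without a pseudocount, the untreated log2 ratio was 0.25 for Trpm5 and 0.33 for Dclk1. Set against the summed pan-epithelial CPM, also without a pseudocount, it was -0.01 for Trpm5 and 0.07 for Dclk1.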

How the results depend on the processing

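Of 106 values recomputed under other settings, 97 stayed within 1.5 times or within counting error of the value above. Among these the member median between labels after AOM/DSS changed sign, from -0.15 to 0.03, when scaled by library totals. A pseudocount of 5 CPM left 1 member at least 2-fold lower after AOM/DSS in WT (4 in the main setting) and 0 between labels after AOM/DSS (2), with medians of -0.37 in WT and -0.36 in the pair labelled knockout. A pseudocount of 0.5 CPM moved the latter median to -1.41. At least 200 counts left 1 member lower in WT and 1 between labels after AOM/DSS, while no count minimum gave 5 lower in the pair labelled knockout (3). The DESeq2 Wald test called 2 members for treatment where edgeR called 0. Over all genes, edgeR called 0 for treatment and 0 for the label (1148 and 746 at an unadjusted p under 0.05), 81 and 62 without a filter, and DESeq2 333 and 250. Scaling by library totals moved the median of all genes to 0.30 in the AOM/DSS pair labelled knockout and to 0.28 between labels after AOM/DSS, and the share of higher genes among those past the size rule from 47.0% to 64.1% and from 48.9% to 64.2%. No paired analysis was possible because each group has 1 library and the labels give no replicate numbers; the additive model compares treatment within each label. At this depth Il25 and Gfi1b, with at most 14 counts in a library, limit what can be said of them.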
